A study of Mus musculus with 5 samples.

Results

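Close CTCF peaks are the intervals of the merged CTCF peak list whose neighbour on either side begins or ends less than 1000 bp away. They were chosen by the gap from the end of one peak to the start of the next on chromosomes 1 to 19, so gap sizes describe the selection and were not tested. The rule took 1649 peaks of 22554 on these chromosomes and of 22756 in the whole list, which is 7.31% of the autosomal peaks (exact Clopper-Pearson 95% interval 6.97 to 7.66%). They formed 859 gaps and 790 runs, a run being an unbroken chain of peaks joined by such gaps.

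The cells were NIH3T3, a mouse embryonic fibroblast line, stably carrying H2B-mCherry, the rtTA3G transactivator and a CDX2 gene under the doxycycline-controlled TRE3G promoter, which all groups share. CDX2 is a homeobox protein that switches on intestinal and trophectoderm genes. The series has 5 libraries: 2 CTCF immunoprecipitations from cells given doxycycline for 6 h, 2 CTCF immunoprecipitations without doxycycline, and 1 input without doxycycline. The dose stands in the labels as 500 ng/µL, which was not checked, and they do not say whether the line is 1 clone or whether replicates are separate cultures. The list merges both CTCF conditions and ties no interval to a library, so the effect of doxycycline was not tested and no value below has a replicate spread. It holds positions without heights or scores, and the depth behind a peak is unknown. Whether neighbouring close peaks were called in the same library or condition is unknown too. Intervals given for shares and rates cover counting error only, and they are too narrow where members of 1 run share a location.

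CTCF is a zinc finger protein that binds a long, directional DNA motif and stops cohesin as it extrudes chromatin loops. Neighbouring CTCF sites are known at loop anchors and domain borders, where several sites in a row can act together as a boundary. CTCF also binds near many promoters, where sites may lie on either side of a start site. A peak interval marks where precipitated fragments piled up and is wider than the motif inside it.

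Sequences could be shown where a promoter window of the reference touched a close peak. The windows are RefSeq's, on GRCm38.p6, the assembly behind mm10, and run from 250 bases before to 50 after an annotated start. Of 31396 windows, 81 from 73 genes were overlapped by a close peak. A core of the CTCF motif, which is CCA, then 2 bases of any kind, AG, again 2 of any kind and GGC, was searched on both strands. It occurred in 10 of these 81 windows (12.3%, exact 95% interval 6.08 to 21.5%), in 190 of 1088 windows touched by other peaks (17.5%, 15.3 to 19.9%), and in 2.47% of all windows. In 9 of the 10 the match lay inside a peak.

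The first sequence is shown because it was the single window reached by both peaks of a pair. It belongs to Usb1, which encodes the enzyme that trims the end of U6 snRNA, at chr8:95332034-95332333 on the plus strand. Capitals mark the bases inside a peak, and the lower-case stretch between them is the gap of 219 bp.
Usb1: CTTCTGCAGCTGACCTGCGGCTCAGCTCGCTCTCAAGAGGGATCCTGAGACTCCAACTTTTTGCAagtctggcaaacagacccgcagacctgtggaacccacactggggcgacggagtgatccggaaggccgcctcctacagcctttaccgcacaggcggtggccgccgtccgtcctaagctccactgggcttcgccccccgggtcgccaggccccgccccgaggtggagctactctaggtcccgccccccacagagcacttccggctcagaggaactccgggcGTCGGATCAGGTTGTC
The upstream peak was 311 bp wide and the downstream peak 185 bp. The motif letters were not in this window.

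The remaining 5 sequences are the windows with the smallest gaps among those whose motif match lay inside a close peak, 1 per run. Capitals mark the match, and each sequence reads 5′ to 3′ along its gene.
Gm46521, chr15:80225351-80225650, plus strand: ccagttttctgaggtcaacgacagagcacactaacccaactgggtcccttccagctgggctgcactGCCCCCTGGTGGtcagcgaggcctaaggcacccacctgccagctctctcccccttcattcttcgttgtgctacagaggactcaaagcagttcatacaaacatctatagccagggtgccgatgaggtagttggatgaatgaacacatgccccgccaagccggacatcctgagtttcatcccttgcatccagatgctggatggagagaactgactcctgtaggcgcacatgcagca
Bcl2l1, chr2:152830668-152830967, minus strand: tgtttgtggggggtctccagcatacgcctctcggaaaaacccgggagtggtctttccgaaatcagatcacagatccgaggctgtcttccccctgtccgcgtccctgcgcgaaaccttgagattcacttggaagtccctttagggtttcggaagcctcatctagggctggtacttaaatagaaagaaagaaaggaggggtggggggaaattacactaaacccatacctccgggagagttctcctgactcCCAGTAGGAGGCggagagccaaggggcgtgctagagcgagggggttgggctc
Gm34744, chr7:19749486-19749785, plus strand: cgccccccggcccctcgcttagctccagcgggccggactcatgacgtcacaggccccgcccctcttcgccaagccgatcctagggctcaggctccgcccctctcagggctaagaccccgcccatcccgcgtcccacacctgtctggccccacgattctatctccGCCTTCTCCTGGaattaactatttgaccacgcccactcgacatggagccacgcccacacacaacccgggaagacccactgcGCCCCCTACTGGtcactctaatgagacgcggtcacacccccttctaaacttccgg
Rpl38, chr11:114668330-114668629, plus strand: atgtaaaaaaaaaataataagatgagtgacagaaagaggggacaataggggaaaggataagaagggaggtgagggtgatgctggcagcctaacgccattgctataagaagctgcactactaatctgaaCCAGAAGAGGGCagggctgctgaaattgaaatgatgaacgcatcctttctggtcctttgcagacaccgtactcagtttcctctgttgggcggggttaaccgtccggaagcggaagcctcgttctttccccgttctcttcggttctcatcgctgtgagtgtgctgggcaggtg
Nifk, chr1:118321593-118321892, plus strand: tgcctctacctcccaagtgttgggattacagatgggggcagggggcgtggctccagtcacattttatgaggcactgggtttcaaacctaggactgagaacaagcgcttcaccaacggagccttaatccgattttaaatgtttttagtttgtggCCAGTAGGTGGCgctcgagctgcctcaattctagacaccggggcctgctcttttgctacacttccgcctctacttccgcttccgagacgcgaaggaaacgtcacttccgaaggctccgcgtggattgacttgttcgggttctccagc
The Gm34744 window, which overlaps that of the divergent cell adhesion gene Nectin2, held 2 matches in 1 peak of 274 bp. Both read on the strand opposite to Gm34744. At Bcl2l1, which encodes the survival protein BCL-XL, the leftmost base of the match lay at position -2 relative to that window's start site, an internal one. At Rpl38, a gene of the large ribosomal subunit, it lay at -122, and at Nifk, which encodes a nucleolar partner of Ki-67, at -97.

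Gaps were spread over the whole allowed range, with few short ones. The smallest gap was 12 bp, the quartiles were 340.5, 537 and 764 bp, and the largest was 999 bp. Midpoints of neighbouring close peaks lay 237 to 3219 bp apart, with a median of 855 bp. Gaps under 200 bp numbered 45, or 22.5 per 100 bp of gap length, and gaps of 200 to 299 bp numbered 130. From 200 bp to under 1000 bp there were 102 gaps per 100 bp, and from 1000 bp to under 2000 bp, beyond the rule, 84.1 per 100 bp. The count per length showed no step at the threshold. Just inside it lay gaps of 994, 996, 997 and 999 bp, and just outside it gaps of 1000, 1001, 1002 and 1006 bp. Per the labels, inserts were selected at 250 bp, a length in the range where gaps became frequent. The part of that selection, of the peak caller or of the merging of both conditions in the scarcity of short gaps was not tested.

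**Figure D1:**
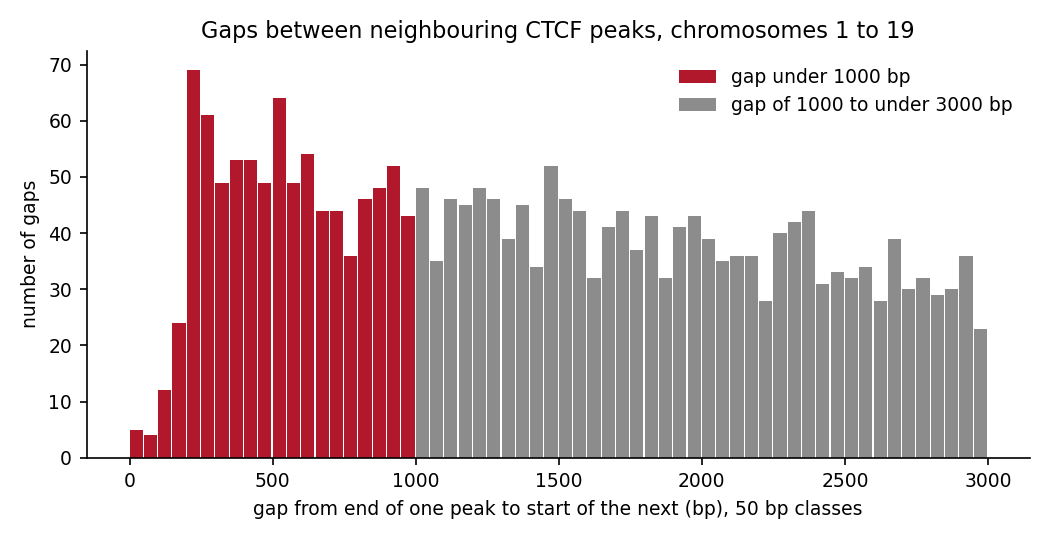
Number of gaps between neighbouring CTCF peaks on chromosomes 1 to 19 in 50 bp classes, up to 3000 bp; gaps under 1000 bp, which define the close peaks, are red and longer ones grey. The classes below 200 bp hold 45 gaps in all, the class that starts at 200 bp holds 69, and no step is seen at 1000 bp.

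Close peaks were wider than other autosomal peaks in every quartile given. They had a median of 285 bp and quartiles of 228 and 354 bp, against a median of 260 bp and quartiles of 217 and 314 bp in the 20905 other peaks. The 1551 peaks whose nearest neighbour lay from 1000 bp to under 2000 bp away stood between them, with a median of 277 bp. Among close peaks 9.04% were 500 bp or wider, against 5.74% of that neighbouring class and 3.65% of all other peaks. A gap is measured between peak edges, so width enters the rule. These differences were not tested, and neither was the part of the merging of both conditions in them.

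Turned round, the share of peaks with a close neighbour was larger in the wide classes. It was 5.89% among 3308 peaks under 200 bp and 5.63% among 6433 peaks of 200 to 249 bp. It was 11.1% among peaks of 400 to 499 bp (95% interval 9.45 to 12.9%) and 15.8% among 861 peaks of 500 bp to under 1000 bp (13.4 to 18.4%). Of 52 peaks of 1000 bp or wider 13 had a close neighbour, which is 25% with an interval of 14.0 to 38.9%.

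**Figure D2:**
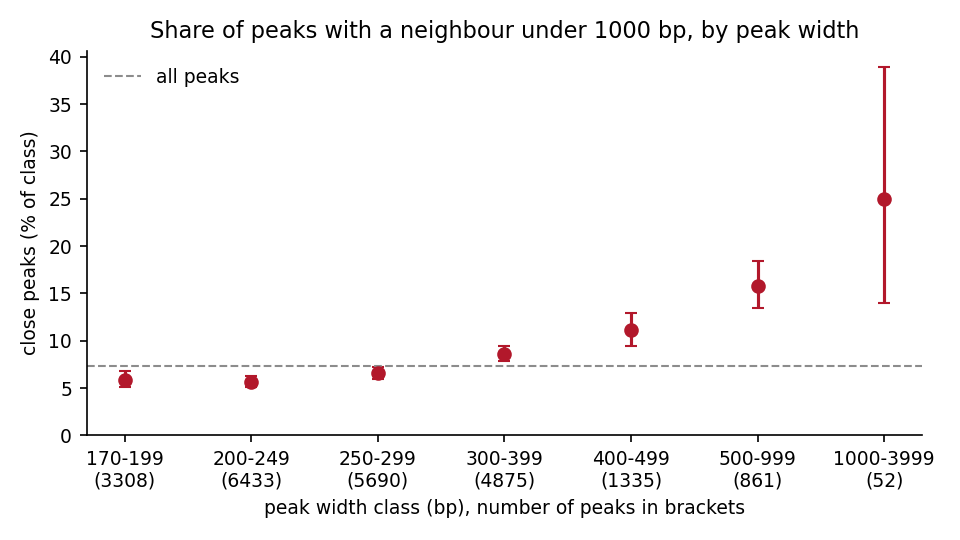
Percent of autosomal CTCF peaks with a neighbour under 1000 bp in each width class, with exact 95% intervals as bars, the number of peaks of the class in brackets and all peaks, 7.31%, as a dashed line. The share stands at 5.63 to 6.59% below 300 bp and reaches 15.8% from 500 bp to under 1000 bp and 25% in the widest class, which has 52 peaks.

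Within a pair the widths were unequal but mostly alike. The wider of both neighbours was a median of 1.35 times as wide as the narrower (quartiles 1.16 and 1.67), and it was more than 2 times as wide in 115 of 859 gaps. In runs of 2 the median width was 281 bp, in runs of 3 it was 318 bp, and in the 36 peaks of runs of 4 or more it was 345.5 bp. Peaks whose nearest gap was under 200 bp had a median of 324 bp, against 280 to 286 bp in the classes of longer gaps. By place, median widths of close peaks were 287 bp at gene ends, 282 bp in gene bodies and 286 bp outside genes. For other peaks they were 276, 260 and 255 bp, a wider spread between places.

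Relative to genes, close peaks lay much where other peaks lay. Gene ends, counted where the midpoint of a peak was no more than 1 kb from a gene's start or stop, held 303 close peaks, or 18.4% (95% interval 16.5 to 20.3%). The share was 16.1% of peaks with their nearest neighbour at 1000 bp to under 2000 bp and 16.4% (15.9 to 16.9%) of all other peaks. Elsewhere in gene bodies lay 48.3% of close peaks against 48.8% of other peaks. Outside genes lay 33.4% of close peaks against 34.8% of other peaks. No test was made of these shares.

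Both neighbours of a gap usually shared 1 gene position. The rule itself makes this likely, because neighbours lie under 1000 bp apart and gene ends were counted within 1 kb. No other gaps were set beside them. In 383 of 859 gaps (44.6%) both peaks lay in gene bodies, and in all 383 a single gene held both. In 106 gaps (12.3%) both lay at gene ends, and in 102 of them the same gene end was within 1 kb of both. In 266 gaps (31%) both lay outside genes. A gene end on one side was joined to a gene body on the other in 68 gaps and to a place outside genes in 36. Of 790 runs, 518 overlapped an annotated gene and 442 a protein-coding one. The other 272 runs lay a median of 5596.5 bp from the nearest gene. These counts have no counterpart for other peaks here, and runs are longer than single peaks.

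In 22 of the 844 gaps on chromosomes with promoter windows, an annotated transcription start site lay between both peaks. The gaps held 24 distinct start sites, or 5.15 per 100 kb of gap (exact Poisson 95% interval 3.30 to 7.67). The stretches of 1000 bp on each side of the runs held 3.87 per 100 kb (2.95 to 4.98), and gaps of 1000 bp to under 2000 bp held 3.26 (2.33 to 4.44). Inside the close peaks themselves the rate was 9.30 per 100 kb (6.88 to 12.3), against 12.6 (11.7 to 13.5) inside other peaks. These rates are a description, and the intervals of the close gaps overlap those of the surrounding sequence.

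The start sites between peaks belonged to 22 loci, and some were internal starts of longer genes. The examples given were picked after their positions were seen. Positions are relative to the start site along the gene. At Snai1, the transcription factor of epithelial to mesenchymal transition, the peaks were 291 and 207 bp wide with a gap of 211 bp. The upstream peak ended at -74 and the downstream one began at 138. At Dusp1, an immediate early phosphatase of MAP kinases, the upstream peak of 281 bp ended at -574 and the downstream peak of 189 bp began at 299.

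Socs1, an inhibitor of cytokine signalling, had an upstream peak of 286 bp that ended at -836 and a downstream one of 817 bp that began at 142. At Trib2, a pseudokinase gene, the start sites of Trib2 and of the opposite-strand model Gm5432 both fell into a gap of 512 bp. Idh1, which encodes cytosolic isocitrate dehydrogenase, had 3 peaks, of 230, 288 and 225 bp, all in the gene body. An annotated start inside the gene, not its outermost one, lay in the gap of 659 bp. The others included Sco2, an assembly factor of cytochrome c oxidase, with a gap of 290 bp, Midn with 441 bp, Rpl38 with 545 bp, and Pop7, a subunit of RNase P, with 570 bp. At Midn and Rpl38 too the start was an internal one, not the outermost start of the gene.

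**Figure D3:**
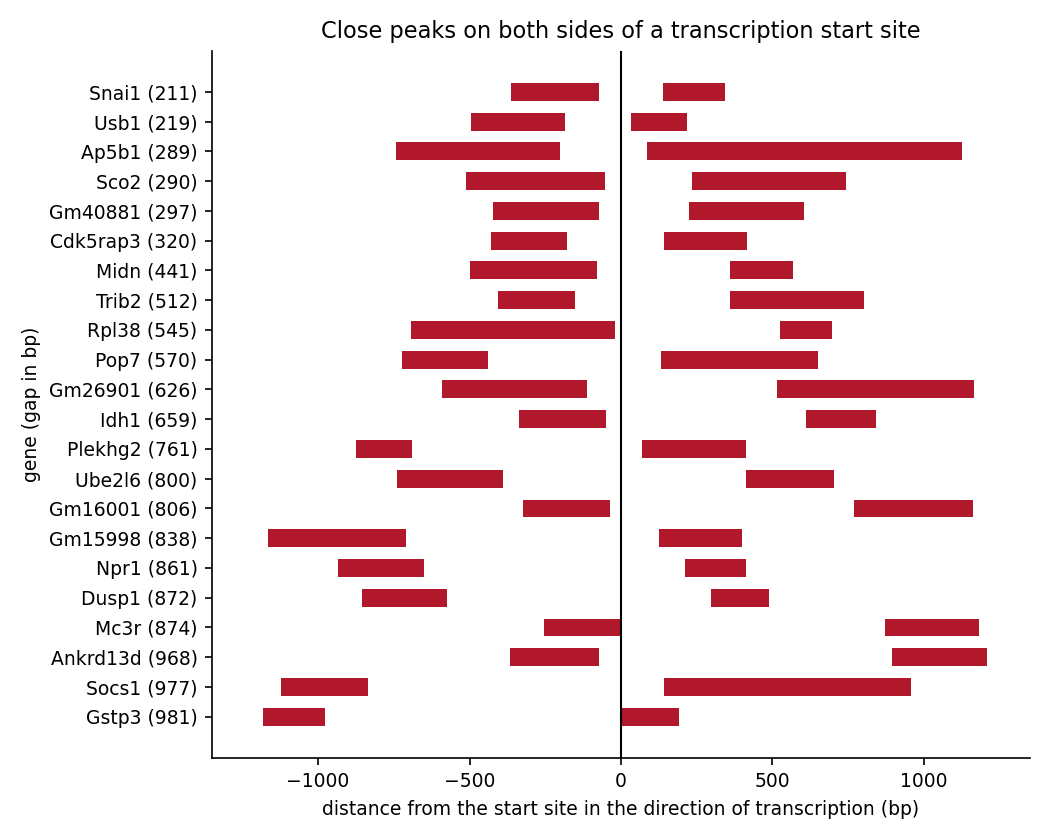
Close CTCF peaks around the 22 gaps that hold an annotated start site, drawn to scale in the direction of transcription with the start at 0 (for Trib2 and Cdk5rap3, whose gaps hold 2 starts, the one listed first); bars are peaks and the gap in bp stands in brackets. The pairs are sorted from Snai1, with a gap of 211 bp, to Gstp3, with 981 bp, and the start lies anywhere between both peaks.

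Runs of 3 or more were the smaller share of the set. There were 733 runs of 2 peaks, 49 of 3, 5 of 4, 2 of 5 and 1 of 6, so 57 runs with 183 peaks had 3 or more. The 49 runs of 3 spanned 1302 to 6267 bp, with a median of 2235 bp. Their larger gap was a median of 1.36 times the smaller one, and in 29 runs both gaps were within 1.5-fold of each other. The middle peak was the widest in 17 runs and an outer one in 32, where each run has 2 outer peaks and 1 middle one. Median widths were 318 bp for middle and 319.5 bp for outer peaks. Of the 183 peaks 20.8% lay at gene ends (95% interval 15.1 to 27.4%) and 26.8% outside genes (20.5 to 33.8%).

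The longest run, of 6 peaks, covered most of Thap1, which encodes a zinc finger transcription factor mutated in a human dystonia. It ran over 4389 bp at chr8:26158360-26162748 within a gene of 5983 bp. From left to right the peaks were 217, 300, 347, 224, 215 and 508 bp wide, with gaps of 503, 272, 789, 601 and 413 bp. Thap1 held no other peak, and the next one outside the run was 109444 bp away.

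Tbx2, a T-box transcription factor of organ development, had a run of 5 at chr11:85839840-85845161. Its peaks were 277, 196, 388, 521 and 521 bp wide with gaps of 693 to 968 bp, and they went from the gene body across its end into the sequence beyond. The other run of 5 lay near the start of the assembled chromosome 4, at chr4:3064763-3067961, where the nearest annotated gene was the pseudogene Vmn1r-ps2, 35738 bp away. A run of 3 at chr4:3054849-3056414 and a pair at chr4:3081255-3085501 were its neighbours, and that pair included a peak of 3769 bp, the widest of all close peaks. How uniquely reads were placed in these runs was not measured.

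Of the 5 runs of 4, 3 lay inside protein-coding genes. Vgll4, which encodes a cofactor that competes for TEAD factors, had peaks of 376, 325, 298 and 211 bp over 2800 bp. Plin1, the perilipin of lipid droplets in fat cells, had peaks of 338, 344, 374 and 214 bp over 2953 bp, and all 4 lay in the gene body. Pdzd7, a scaffold gene of hair cell stereocilia, had peaks of 480, 312, 393 and 560 bp over 3225 bp. The non-coding gene Gm14206 on chromosome 11 had peaks of 427, 362, 326 and 619 bp.

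The remaining run of 4 lay beyond the 3′ end of the immunoglobulin heavy chain constant genes on chromosome 12, a place where a row of CTCF sites is known as a boundary in mouse B cells. The nearest annotated gene was the snRNA model Gm25622, at 5630 bp. Peaks of 312, 408, 356 and 601 bp stood at chr12:113219882-113222672, and the last ended 33532 bp before Igha. With a pair of 388 and 290 bp and 1 single peak of 273 bp to the left, 7 peaks lay within 6685 bp, of which 6 were close peaks. To the right no peak followed for 265087 bp.

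**Figure D4:**
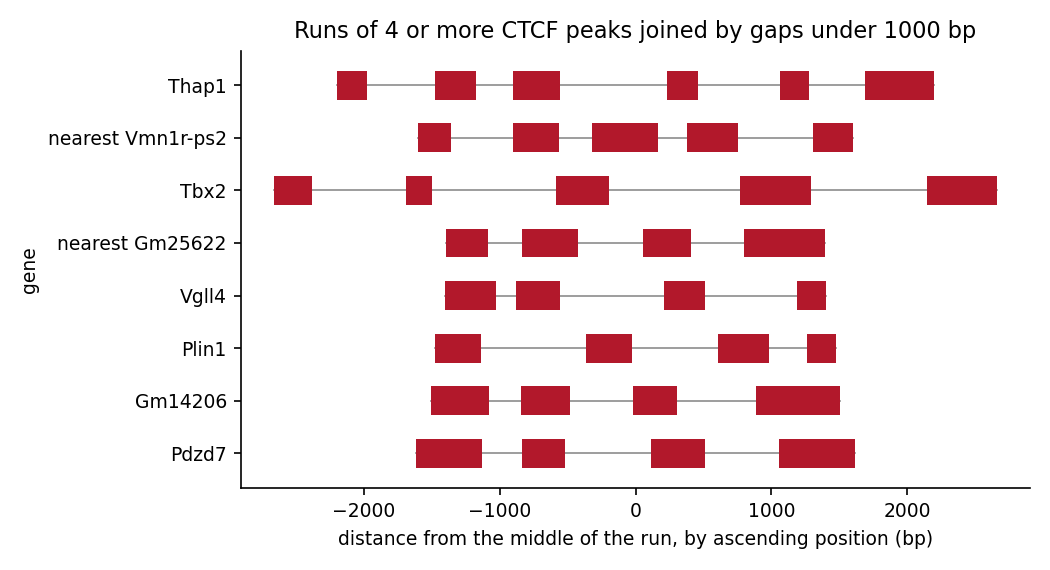
The 8 runs of 4 or more CTCF peaks, drawn to scale around the middle of each run by ascending genome position; red blocks are peaks and grey lines the run, and the label names the gene that overlaps the run or the nearest one. Thap1 has 6 peaks over 4389 bp, while the runs of 4 span from 2791 to 3225 bp.

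The tightest runs of 3 were in genes of varied function. At Bcl2l1 peaks of 269, 302 and 241 bp with gaps of 236 and 254 bp spanned 1302 bp, with midpoints 2040 to 3087 bp downstream of the outermost start. Tnk2, a non-receptor tyrosine kinase gene, followed with 189, 215 and 248 bp over 1390 bp, and Card10, an NF-kappaB scaffold gene, with 194, 376 and 325 bp over 1452 bp. Pdgfra, the PDGF receptor alpha of fibroblasts, had peaks of 299, 306 and 217 bp at chr5:75155670-75157322, with midpoints 4497 to 5892 bp into the gene.

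Further runs of 3 among the 12 shortest were in Hjurp, the loading chaperone of the centromeric histone CENP-A, Tmprss6, a membrane protease of iron regulation, Thap4 and Idh1. Those spanned 1650, 1714, 1743 and 1852 bp. The 12 also took in runs near Smug1 and Gm30331, the chromosome 4 run above, and 1 at Duxf3, a double homeobox gene. Duxf3 has near-identical copies, and how reads were placed among them was not measured, so its peaks may be shared with those copies.

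The smallest gap, of 12 bp, separated peaks of 2767 and 469 bp, with one of 2366 bp beside them, at chr7:12010487-12016753. That run had the largest summed width, 5602 bp, and its nearest annotated gene was the pseudogene Vmn1r-ps60. The nearest peak outside it stood 892805 bp away, and how uniquely reads were placed in this run was not measured. Next came a pair of 202 and 418 bp near Osbpl7 with a gap of 33 bp, and pairs in Unc119, a lipid-binding chaperone gene, and Lrrc9 with 39 bp each. In Unc119 the peaks were 497 and 720 bp wide, and in Lrrc9 177 and 373 bp. At Gpr20, an orphan receptor gene, peaks of 199 and 186 bp stood 44 bp apart, and near Elfn1, a synaptic protein gene, peaks of 191 and 207 bp stood 52 bp apart. Runs at Dusp3, Gm10039 and Myo15b and near Il5 completed the 10, with smallest gaps of 78 to 122 bp.

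In several runs with the largest summed widths 1 peak was far broader than its neighbours. In Yy1, whose product is a zinc finger protein that helps bring enhancers and promoters together, peaks of 262 and 336 bp stood beside one of 2708 bp. In Tmcc1 peaks of 522 and 244 bp stood on either side of one of 1509 bp. At the non-coding gene Gm51701 a peak of 197 bp lay beside one of 1825 bp. Myo18a, an unconventional myosin gene, had a run of 968, 435 and 370 bp.

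Close peaks came back several times in a few genes. Of 20560 protein-coding genes on these chromosomes 421 had a close peak with its midpoint between the gene's start and stop, and 2 had 8. In Myo18a, 8 of the 12 peaks so placed were close peaks, in 4 runs, the first of them across the 5′ end of the gene. In Yy1, 8 of 11 were, in 3 runs over 20078 bp, with widths of 173 and 595 bp, then 504, 474 and 345 bp, then the run with the broad peak. Thap1 had 6 of 6 and Bcl2l1 5 of 5.

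The next genes of the 10 had 4 each: Copz1, a coatomer subunit gene, with 4 of 4, Itpr3, an inositol trisphosphate receptor gene, with 4 of 7, Jade2 with 4 of 5, Krt78 with 4 of 6, the polarity gene Pard3 with 4 of 7 and Pdzd7 with 4 of 6. In all, 14 protein-coding genes had 4, and the tie was cut by symbol, so those named rank no higher than the rest. In Copz1 the second pair, of 296 and 281 bp, ended 90 bp before the hairpin of Mir148b. That was 1 of 2 hairpins within 1 kb of a close peak, of 919 listed on these chromosomes. The other was Mir129-1, at 649 bp. Hairpins near other peaks were not counted.

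By chromosome, the share of close peaks was 11.3% on chromosome 19 (95% interval 9.34 to 13.4%), 10.3% on chromosome 11 (9.17 to 11.6%) and 9.96% on chromosome 15 (8.41 to 11.7%). It was 3.48% on chromosome 14 (2.19 to 5.21%) and 4.80% on chromosome 3 (3.58 to 6.28%). On chromosome 11 the part from 95 Mb on had 12.5% (10.6 to 14.5%) and the part before it 8.52% (7.09 to 10.1%). Peak density was 16.8, 21.3 and 13.5 peaks per Mb on chromosomes 19, 11 and 15, against 5.28 on chromosome 14 and 6.66 on chromosome 3. The order of density and share was not the same throughout: chromosome 12, with 6.59 peaks per Mb, had 7.79%, and chromosome 5, with 11.1 peaks per Mb, had 6.59%. The part of density in the differences was not tested. Runs of 3 or more numbered 8 on chromosome 11, 7 on chromosome 15 and none on chromosomes 3, 9, 13, 14 and 18.

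**Figure D5:**
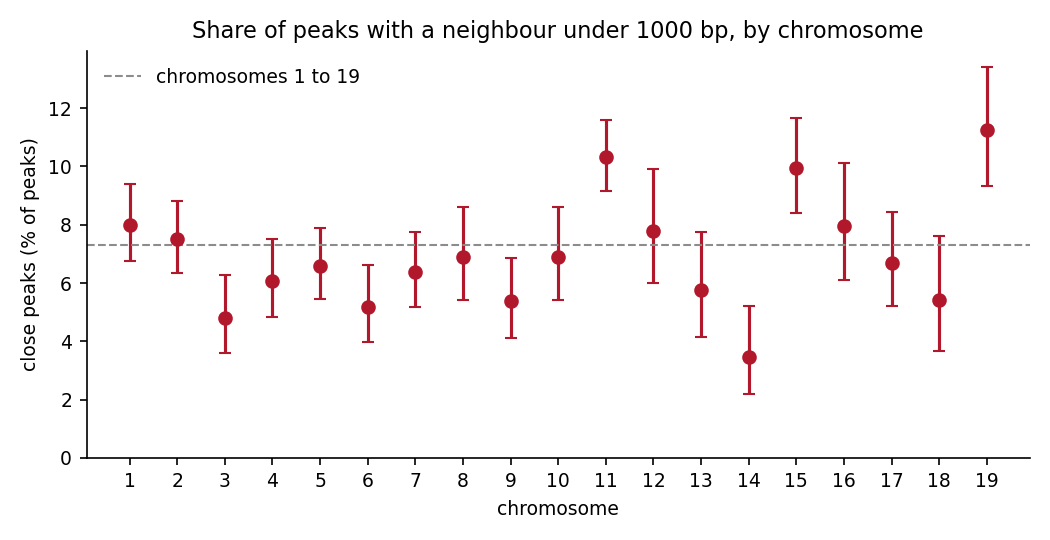
Percent of CTCF peaks with a neighbour under 1000 bp on each autosome, with exact 95% intervals as bars and all autosomes, 7.31%, as a dashed line. Chromosomes 11, 15 and 19 stand at 9.96 to 11.3% and chromosome 14 is lowest at 3.48%.

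Gene lists chosen with earlier results of these data known were described by how many members had a close peak inside the gene or within 10 kb, beside 825 of 20560 protein-coding genes (4.01%), or 7.52% of those with any peak. Hox genes, which pattern the body axis, had none of 39, although 29 of them had some peak, and a count of 0 of 39 allows a share of up to 7.69%. Clustered protocadherins, the neuronal adhesion genes, had none of 57, although 47 had a peak (up to 5.26%). Replication-dependent histone genes had none of 64 (up to 4.69%), and olfactory receptor genes none of 1103 (up to 0.272%), of which 61 had any peak. Only for the olfactory receptors does the limit lie below the 4.01% of all protein-coding genes. Few olfactory receptor genes had any peak, 5.53% against 53.4% of all protein-coding genes. The limits are 3 divided by the number of genes on the list, an approximation and not the exact interval used for other shares. They take genes as independent, although neighbours share peaks, and no depletion was tested.

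Cdx2 itself, on the intestinal and trophectoderm lists, had a close pair. Peaks of 364 and 207 bp with a gap of 673 bp stood at chr5:147293133-147294376, beyond the 3′ end of Cdx2, with midpoints 7585 and 6627 bp from the gene and inside the non-coding gene Gm35112. Since the list merges both conditions, whether doxycycline bears on this pair was not tested. The other intestinal genes with a pair were Gpa33, an intestinal surface antigen, with 314 and 239 bp in its body, and Krt8, a simple epithelial keratin, with 294 and 246 bp in the neighbouring Krt78, at 8411 and 7815 bp from Krt8. That made 3 of 39 intestinal genes and 2 of 20 trophectoderm genes.

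Fibroblast genes had close peaks at 4 of 39: Pdgfra and Snai1, described above, the collagen gene Col1a2, with 290 and 286 bp 3269 and 4374 bp beyond its 3′ end, and the collagen cross-linking gene Loxl1, with 284 and 182 bp outside the gene. Immediate early and AP-1 genes had them at 3 of 24: Dusp1, the AP-1 subunit gene Junb and the nuclear receptor gene Nr4a1. The pairs of Junb and Nr4a1 lay at ends of their neighbours Prdx2 and Atg101.

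Imprinted genes had them at 3 of 47. Commd1 held a pair of 202 and 272 bp, and Phlda2 and Slc22a18 shared a pair of 240 and 292 bp, with midpoints 2910 and 3726 bp upstream of Phlda2. Ribosomal protein genes had close peaks at 6 of 91. In Rpl12, a short gene, peaks of 283, 185 and 329 bp stood between the gene's start and stop, all within 1 kb of an end, in Rpl3 peaks of 313 and 232 bp stood 393 bp apart, at Rpl38 the pair shown above stood on either side of a start site, and in Rpl18 peaks of 303 and 223 bp stood on both sides of the gene's 3′ end. Genes of the cohesin and CTCF list had them at 1 of 20, which was Yy1. Neighbours share peaks and the lists are small, so none of these shares was tested against the others.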

How the data were processed

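CTCF was precipitated from formaldehyde-fixed, sonicated NIH3T3 chromatin with a Drosophila chromatin spike-in and sequenced as paired 37 nt reads, per the labels' protocols. Tools named by the submitters' processing notes are STAR, Picard and MACS2, with mm10 and dm6 as builds. They give neither version nor role. Not given in the sources used here were the peak threshold, the merging and any use of the spike-in. The authors deposited 1 list of 3 columns, chromosome, start and end, without signal.

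Gaps, runs, widths and positions were computed with Python 3.11.15, pandas 2.3.3 and scipy 1.17.1 and checked on planted runs. Coordinates are on mm10, counted from 1. The RefSeq gene table (GRCm38.p6) gave 46714 genes on chromosomes 1 to 19, 20560 of them protein-coding, after genes placed below 3 Mb were left out. Promoter windows came from 25748 genes, including 16457 protein-coding ones, with none on chromosome 18.

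Genes named by rule are those at the 10 runs with the smallest gap, the 10 with the largest summed width, all runs of 4 or more, the 12 shortest runs of 3, the 10 protein-coding genes with most close peaks inside the gene, and up to 4 per list. Ties were cut by symbol. Other genes were named with the sequences, start sites between peaks, groups of runs, hairpins or as neighbours. The start-site and group examples followed no rule set beforehand. Members, lists and rules were chosen with earlier results of these data known. No test was run, because the members carry no replicate and the gap chose them. Doxycycline and no doxycycline were not compared. Alternatives changed the gap limit, the peaks or chromosomes entered, the gene-end distance, the overlap rule and the gene set.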

Additional observations from a re-analysis of the deposited data

How the results depend on the processing

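Of 43 alternative values, 30 stayed within the interval of the value as reported or, for counts, within 1.5 times. With gaps under 500 bp there were 742 close peaks and 14 runs of 3 or more, with gaps under 2000 bp 3200 and 162, and with peaks of at least median width 624 and 26, against 1649 and 57 as reported. Peaks of at least median width had, by construction, a larger median width of 341.5 bp against 285 bp, and 29.0% of their runs had a peak at a gene end, against 24.9% of runs as reported. That share was 19.1% with gene ends within 500 bp, 40.5% within 2500 bp and 17.1% with protein-coding genes only. Runs with every peak outside genes made up 31.4% as reported, 25.9% with gene ends within 2500 bp and 41.8% with protein-coding genes only; both follow from the larger or smaller annotated space. Leaving out chromosome 11, the first and last 1 Mb of each chromosome or peaks of 1000 bp or wider moved no value past these limits. The depth is unknown, so a neighbour that was not called may have lacked reads. No paired analysis was possible because the list carries no value per library.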

Other observations

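Chromosomes X and Y lie outside the rule. Chromosome X had 1 close pair among its 185 peaks, of 233 and 194 bp with a gap of 485 bp at chrX:102219204-102220115. Chromosome Y had 1 run of 3 among its 16 peaks, of 276, 275 and 193 bp with gaps of 344 and 359 bp.

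Runs themselves came in groups at some loci. A further run lay within 10 kb of 48 of the 790 runs, in 23 groups, of which 2 had 3 runs. One was Yy1 and the other lay around 1600014C10Rik and D530033B14Rik on chromosome 7, with 6 close peaks in 15754 bp. Other peaks that stood between its runs are not in that count. The groups of 2 runs included Tns2, a focal adhesion gene, Cygb, which encodes cytoglobin, Lbx1, a homeobox gene of muscle precursors, and Hdac7 with Slc48a1. At 83 runs the next peak outside stood at 1000 bp to under 2000 bp. The median distance from a run to the next peak outside it was 9533.5 bp.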
